A study of Mus musculus with 27 samples.

Results

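The endoplasmic reticulum stress genes described here are 10 genes chosen by name: the chaperone genes Hspa5, Hsp90b1, Calr and Dnajb9, the degradation gene Herpud1, the transcription factor genes Xbp1, Atf4 and Ddit3, and the effector genes Chac1 and Trib3. They were taken from 21887 mouse coding genes with coordinates, and all 10 were found in the gene table. The series concerns nuclear ACLY (ATP citrate lyase, which makes acetyl-CoA from citrate) in liver injured by ischemia and reperfusion. Primary hepatocytes, which are liver parenchymal cells freshly isolated from mice, were put into their culture conditions 24 hours after isolation and mapped by CUT&RUN, a method in which an antibody directs DNA cutting to the sites its target occupies. Wild-type (WT) cells were kept in normoxia or put through hypoxia followed by reperfusion (HR), and cells of the Acly knockout (KO) were put through HR. The knockout is Alb-cre:Aclyf/f: Cre under the albumin promoter, which is active in hepatocytes, deletes the floxed Acly alleles, and the labels of the cultured cells name it AclyKO. Each of the 3 conditions has 1 list of peaks for H3K27ac and 1 for H3K9ac, and the 2 WT conditions also have 1 list each for an anti-FLAG antibody that marks ACLY. How a FLAG tag was brought into WT cells, the age and sex of the mice, and whether cells of several mice were pooled are not given in the sources used here. KO cells in normoxia were not analysed here.

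The endoplasmic reticulum folds secreted and membrane proteins, and hepatocytes, which secrete most plasma proteins, load it heavily. Unfolded protein releases the sensors PERK, IRE1 and ATF6. PERK phosphorylates the initiation factor eIF2, which slows translation and favours that of ATF4, and ATF4 then raises genes such as Ddit3, Chac1 and Trib3. IRE1 splices Xbp1 mRNA, and XBP1 and ATF6 raise chaperone and degradation genes. H3K27ac and H3K9ac are acetyl marks of active promoters, and H3K27ac also marks active enhancers. Acetyl-CoA is the donor for both.

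There was 1 library per antibody and condition, so no difference between lists has a replicate check and none was tested. A gene was counted as having a peak where a deposited peak shared at least 1 base with the gene or with the 1 kb on either side of it. The H3K27ac lists held 5655 peaks in WT normoxia, 8252 in WT HR and 14418 in KO HR, and the H3K9ac lists 6513, 7593 and 8837. The number of reads behind a list is not known. The peak edges differ in kind between genotypes: 99.98% to 100% of WT peaks and 0.943% and 1.01% of KO peaks lie on a 10 bp grid, and the median peak width was 7410 bp in WT HR and 3845 bp in KO HR for H3K27ac. Lists of the 2 genotypes were thus produced differently, and genotype and this difference cannot be told apart. Hepatocyte markers had H3K27ac at 7, 7 and 8 of 10 genes in the 3 conditions, with Alb, Ttr and Hnf4a among those with a peak and Apoa2 and Serpina1a without one in any of them. Stellate cell and fibroblast markers had it at 0 of 7 genes, leukocyte markers at 1 of 9 (Cd68) and endothelial markers at 2 of 7 (Stab2 and Lyve1) in every condition, and cholangiocyte markers at 0, 0 and 1 of 5 (Sox9). The part of other cell types in the peaks was not tested. RNA of the 10 genes was not analysed here, because the RNA files name Ensembl transcripts and no table pairing them with genes was used.

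The promoters come first, because every acetylation peak list but 1 covered the start of all 10 genes and the ACLY-FLAG peaks covered 3 of the starts. The bases just upstream of the gene start are shown for the promoters that hold a match to a known stress element, and for Xbp1 and Ddit3, whose upstream windows lay whole under an ACLY-FLAG peak. Sequences are from RefSeq (GRCm38.p6, the assembly that mm10 names), 5′ to 3′ on the strand of the gene and end at the base before the start. Capitals mark the matches.
Hspa5, chr2:34772015-34772089, plus strand: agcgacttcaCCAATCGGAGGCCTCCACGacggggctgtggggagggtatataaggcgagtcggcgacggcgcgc
Hsp90b1, chr10:86705445-86705666, minus strand: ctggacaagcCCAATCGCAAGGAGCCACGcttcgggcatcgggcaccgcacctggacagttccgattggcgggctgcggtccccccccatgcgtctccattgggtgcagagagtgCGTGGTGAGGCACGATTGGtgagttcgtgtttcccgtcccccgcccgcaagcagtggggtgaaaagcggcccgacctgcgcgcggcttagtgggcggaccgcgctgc
Calr, chr8:84846932-84847103, minus strand: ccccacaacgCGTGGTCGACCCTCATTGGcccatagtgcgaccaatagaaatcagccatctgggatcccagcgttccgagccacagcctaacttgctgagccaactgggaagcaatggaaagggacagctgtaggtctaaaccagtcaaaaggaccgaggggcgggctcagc
Herpud1, chr8:94386307-94386428, plus strand: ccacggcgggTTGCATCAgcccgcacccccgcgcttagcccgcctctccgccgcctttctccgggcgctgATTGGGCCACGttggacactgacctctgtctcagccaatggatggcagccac
Chac1, chr2:119351039-119351241, plus strand: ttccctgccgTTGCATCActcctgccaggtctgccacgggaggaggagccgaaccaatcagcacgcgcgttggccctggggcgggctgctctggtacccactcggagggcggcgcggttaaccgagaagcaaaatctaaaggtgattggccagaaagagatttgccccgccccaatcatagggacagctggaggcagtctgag
Xbp1, chr11:5520391-5520640, plus strand: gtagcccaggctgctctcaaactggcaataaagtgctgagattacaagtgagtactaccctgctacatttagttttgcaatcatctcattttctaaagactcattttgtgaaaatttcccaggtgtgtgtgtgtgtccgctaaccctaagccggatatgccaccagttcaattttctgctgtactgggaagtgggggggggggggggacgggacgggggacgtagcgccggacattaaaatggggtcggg
Ddit3, chr10:127290543-127290792, plus strand: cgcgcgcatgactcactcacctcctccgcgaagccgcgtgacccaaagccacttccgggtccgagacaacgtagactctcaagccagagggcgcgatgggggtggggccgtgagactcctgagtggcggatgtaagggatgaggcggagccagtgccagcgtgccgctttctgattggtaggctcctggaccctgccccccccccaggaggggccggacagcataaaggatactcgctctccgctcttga

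The search covered both strands of windows from 250 bases before to 50 bases after a gene start, in 32851 windows of which each of the 10 genes has 1. The ER stress response element (ERSE) was taken as CCAAT followed after 9 bases by CCACG. It was found in the promoters of 3 of the chaperone genes, Hspa5, Hsp90b1 and Calr, and in 0.119% of all windows. The match in Hspa5 ran from 65 to 47 bases upstream of the start. Hsp90b1 held 2 matches on opposite strands, at 212 to 194 and at 107 to 89 bases upstream, and Calr held 1 on the reverse strand at 162 to 144 bases upstream. ERSE-II, taken as ATTGG followed after 1 base by CCACG, was found in Herpud1, 52 to 42 bases upstream, and in 0.0365% of all windows. The C/EBP-ATF response element (CARE), which ATF4 binds with C/EBP partners, was taken as TGATGNAA. Chac1 held it 193 to 186 bases upstream and Herpud1 112 to 105 bases upstream, both on the reverse strand. A match in Trib3 lay 14 bases after the start, and is not shown. CARE stood in 3.97% of all windows. The matches do not overlap each other. TGACGTGG, the element named UPRE that XBP1 binds, and TGACGTCA, the cAMP response element, were in none of the 10 windows and in 0.676% and 1.79% of all windows. A match is a run of letters and not a shown binding site, and its absence says only that these letters are not in the window. The genes and the elements were both chosen as known parts of this response. The shares of all windows are thus a description and show no enrichment.

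All 10 genes had H3K9ac in each of the 3 conditions, and 7 of them also had H3K27ac in each. Of all coding genes, 31.9% had H3K9ac in WT normoxia, 36.4% in WT HR and 35.9% in KO HR. For H3K27ac the shares were 22.6%, 30.3% and 37.9%, against 7, 10 and 10 of the 10 genes. Both marks in all 3 conditions were found at the 7 genes Hspa5, Hsp90b1, Herpud1, Xbp1, Atf4, Ddit3 and Trib3, and at 18.5% of coding genes. Each of the 10 genes with an acetylation peak in a list had its start covered. The start of the gene lay under H3K27ac in 16.1%, 23.8% and 29.5% of the 17492 coding genes with a known start, and under H3K9ac in 27.2%, 31.8% and 28%. In each acetylation list the share of the 10 genes was above that of all coding genes, in normoxia too. The 10 genes were chosen with earlier results of these data known, so this excess is not independent of the data.

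**Figure D1:**
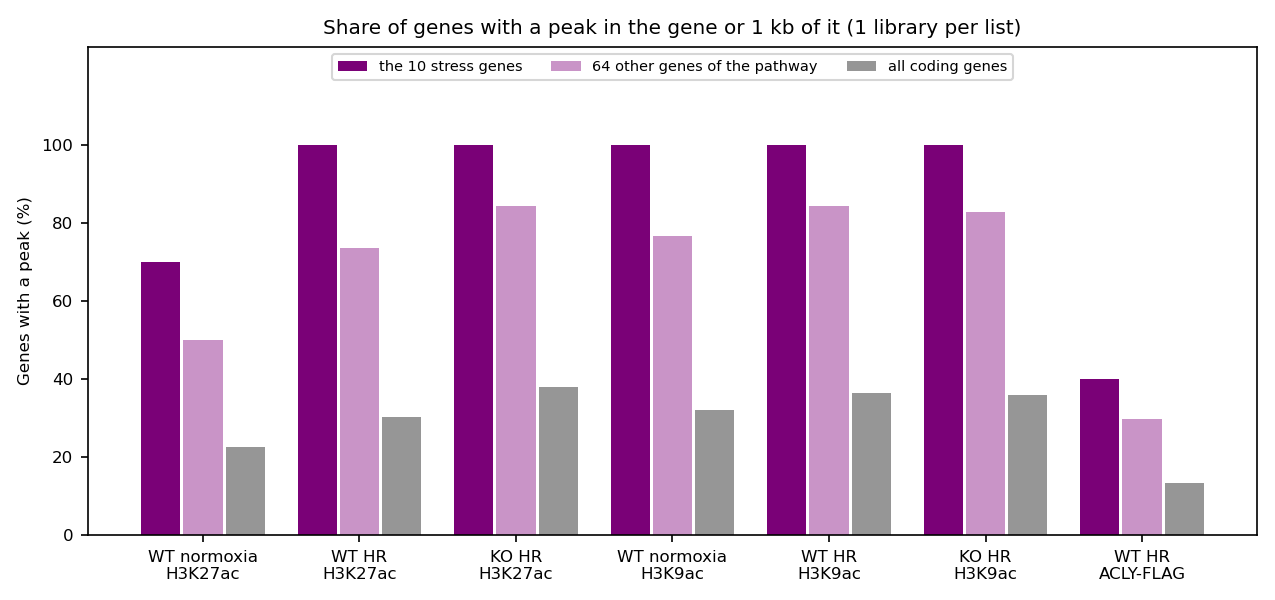
Share of genes with a peak (vertical axis, percent) in each of 7 peak lists (horizontal axis), for the 10 stress genes, 64 other genes of the pathway and all 21887 coding genes. The 10 genes reached 7 of 10 for H3K27ac in WT normoxia and 10 of 10 in the other acetylation lists, above the grey bars of all coding genes.

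Calr, Dnajb9 and Chac1 were the 3 genes with H3K27ac in WT HR and none in WT normoxia. That was the case for 8.38% of all coding genes, and the reverse, a peak in normoxia and none in HR, held for none of the 10 genes and for 0.699% of coding genes. All 3 had H3K9ac in normoxia, and among the 2598 coding genes with H3K9ac and no H3K27ac in normoxia, 51.6% had H3K27ac in HR. In normoxia the nearest H3K27ac peak lay 124660 bp from Calr, 118735 bp from Chac1 and 54863 bp from Dnajb9, so no neighbouring peak reached these genes. The HR peaks ranked 1370 for Calr, 4433 for Dnajb9 and 4543 for Chac1, where rank 1 is the highest total signal of the list. When each list was reduced to its 5655 peaks of highest total signal, the length of the shortest acetylation list, the same 3 genes had the mark in HR and not in normoxia, against 2.89% of coding genes. When each list was instead reduced to the peaks above its median maximum signal, the genes with the mark in HR and not in normoxia were Chac1 and Ddit3, and neither Calr nor Dnajb9 had an H3K27ac peak in WT HR. At that limit 12.6% of coding genes had H3K27ac in normoxia and 19.1% in HR. The share with it in HR alone is not given for that limit. With 1 library per condition, a gene just under the caller's limit in normoxia and a gene without the mark cannot be told apart. H3K9ac gave no such gene in either direction (5.92% of coding genes had it in HR and not in normoxia, and 1.45% the reverse).

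Between WT HR and KO HR, none of the 10 genes differed in whether a peak was present. In coding genes, 8.31% had H3K27ac in KO HR and not in WT HR and 0.672% the reverse, and for H3K9ac the shares were 3.46% and 3.97%. The 3 genes that had H3K27ac in HR alone among the WT conditions also had it in KO HR, at ranks 2635 for Calr, 3679 for Dnajb9 and 5305 for Chac1.

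Ranks within a list, given below also as a percent of the peaks in that list (0% is the highest signal), are by total signal unless another measure is named. They depend on the length of the list, so values of different lists stand side by side and show no change. The median of the genes with H3K27ac was 29.3% in WT normoxia (7 genes), 15.9% in WT HR and 12.5% in KO HR (10 genes each), while that of all coding genes with a peak was 42%, 39.5% and 36.7%. For H3K9ac the median of the 10 genes was 20%, 7.62% and 9.88%, and that of coding genes 42.7%, 41.8% and 42.4%. Peaks at the 10 genes were also wider, with a median over genes of 11610 bp for H3K27ac in WT HR against 8580 bp for coding genes with a peak, and 9525 against 6860 bp for H3K9ac. Total signal adds up over a peak and so grows with its width. By signal per base the H3K27ac median of the genes was 51.3%, 39.7% and 34.4%, and that of coding genes 52.5%, 46.4% and 38.2%. The H3K9ac median per base was 42.2%, 22.5% and 20.7%, against 48.8%, 45.8% and 42.3%, and by maximum signal 34.1%, 28.7% and 27.2%, against 41.5%, 41.2% and 40.6%. The gap to coding genes was thus smaller by these measures than by total signal, for H3K27ac per base and for H3K9ac by both. By maximum signal the H3K27ac median was 22.3%, 11.9% and 12.3%, against 46.2%, 40% and 36% for coding genes. That gap was larger than by total signal in both WT lists and about the same in KO HR.

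**Figure D2:**
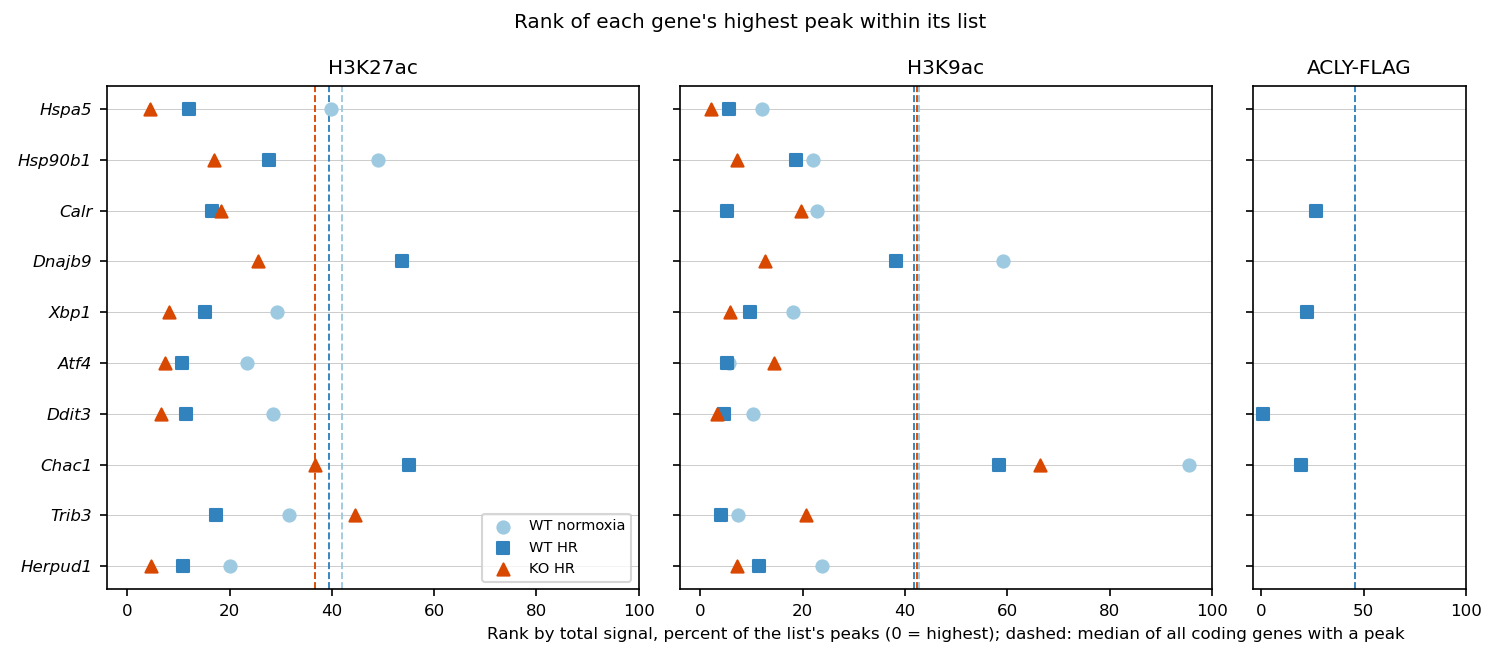
Rank of the highest peak of each gene (horizontal axis, percent of the list's peaks, 0 is the highest total signal) for H3K27ac, H3K9ac and ACLY-FLAG, by condition. Dashed lines are the medians of all coding genes with a peak. In WT HR, Dnajb9 and Chac1 lie right of the dashed line for H3K27ac and Chac1 alone for H3K9ac.

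Hspa5 (chromosome 2, 34772090 to 34776529, mm10) encodes BiP, the main Hsp70 chaperone of the endoplasmic reticulum, which also holds the stress sensors inactive. Its H3K27ac peak was 5880 bp wide in WT normoxia, 11010 bp in WT HR and 11869 bp in KO HR. It covered 46.4% of the gene in normoxia and 100% in both HR lists, while its upstream edge lay 3819, 3649 and 4163 bp before the start. Among genes with H3K27ac in both WT conditions the ratio of HR to normoxia width was 1.87 for Hspa5, the highest of the 7 genes, and 0.96 at the median of 4797 coding genes. By rank the H3K27ac peaks stood at 39.8%, 12.1% and 4.36% of their lists and the H3K9ac peaks at 12.1%, 5.62% and 2.08%. The KO HR H3K9ac peak, at rank 184 of 8837, was the highest-ranking of the 10 genes in that list. Every list had its maximum upstream of the start, at 425 to 2045 bases. All of these peaks but that of H3K27ac in normoxia also touched Rabepk.

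Hsp90b1 (chromosome 10, 86690841 to 86705444) encodes GRP94, the Hsp90 chaperone of the same compartment. Its peaks began 1779 to 3486 bp upstream and ended inside the gene, covering in normoxia, WT HR and KO HR 58%, 56.4% and 41.1% of it for H3K27ac and 49.4%, 39.3% and 26.8% for H3K9ac. The H3K27ac rank was 49.1%, 27.8% and 16.9% and the H3K9ac rank 22%, 18.6% and 7.16%. These peaks also touched Ttc41, whose start lies within 1 kb of the maximum in all 6 lists, so the signals of these 2 genes cannot be told apart.

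Calr (chromosome 8, 84842088 to 84846931) encodes calreticulin, a calcium-binding lectin chaperone of glycoproteins. It had no H3K27ac peak in WT normoxia and peaks of 18340 bp in WT HR and 10000 bp in KO HR, at 16.6% and 18.3% of the lists. Its H3K9ac peaks measured 11090, 18280 and 4652 bp and stood at 22.8%, 5.14% and 19.7%. The wide WT HR peaks ran past the gene end by 11147 bp (H3K27ac) and 11437 bp (H3K9ac), and the H3K9ac maximum lay 14526 bp after the Calr start, near that of Dand5. By maximum signal the WT HR H3K27ac peak stood at 65.6% of the list, and by width at 12.4%.

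Dnajb9 (chromosome 12, 44205897 to 44210068) encodes ERdj4, a J-domain partner of BiP that restrains IRE1. No other coding gene was touched by its peaks, which were 5720 and 6058 bp wide for H3K27ac in WT HR and KO HR and 5200, 5140 and 3513 bp for H3K9ac in the 3 conditions. Its ranks were 53.7% and 25.5% for H3K27ac and 59.1%, 38.3% and 12.5% for H3K9ac. By total signal it was the lowest-ranking chaperone gene in both WT HR lists. By maximum signal that held for H3K9ac (39%), but for H3K27ac Calr was lower (65.6% against 58.5%). Per base Dnajb9 stood at 36.9% for H3K27ac and 17.7% for H3K9ac in WT HR, above Hsp90b1 (47.3% and 21.9%) and Calr (63.8% and 62.5%).

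Herpud1 (chromosome 8, 94386429 to 94395371) encodes HERP, a membrane protein of the degradation machinery. Its H3K27ac peak was 16560, 18760 and 18756 bp wide and reached 11428, 10688 and 10296 bp upstream, with no other coding gene in it. In WT normoxia and KO HR the maximum lay 8404 and 8128 bp before the start, and in WT HR it lay 294 bp before it. The H3K9ac peaks, of 10400, 10380 and 5952 bp, reached 3658, 1648 and 1479 bp upstream and had their maxima within 491 bp of the start. The part of the H3K27ac peaks farthest upstream, in all 3 conditions, thus lay outside the H3K9ac peaks. By rank Herpud1 stood at 20.1%, 10.9% and 4.59% for H3K27ac and at 23.8%, 11.4% and 7.22% for H3K9ac.

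**Figure D3:**
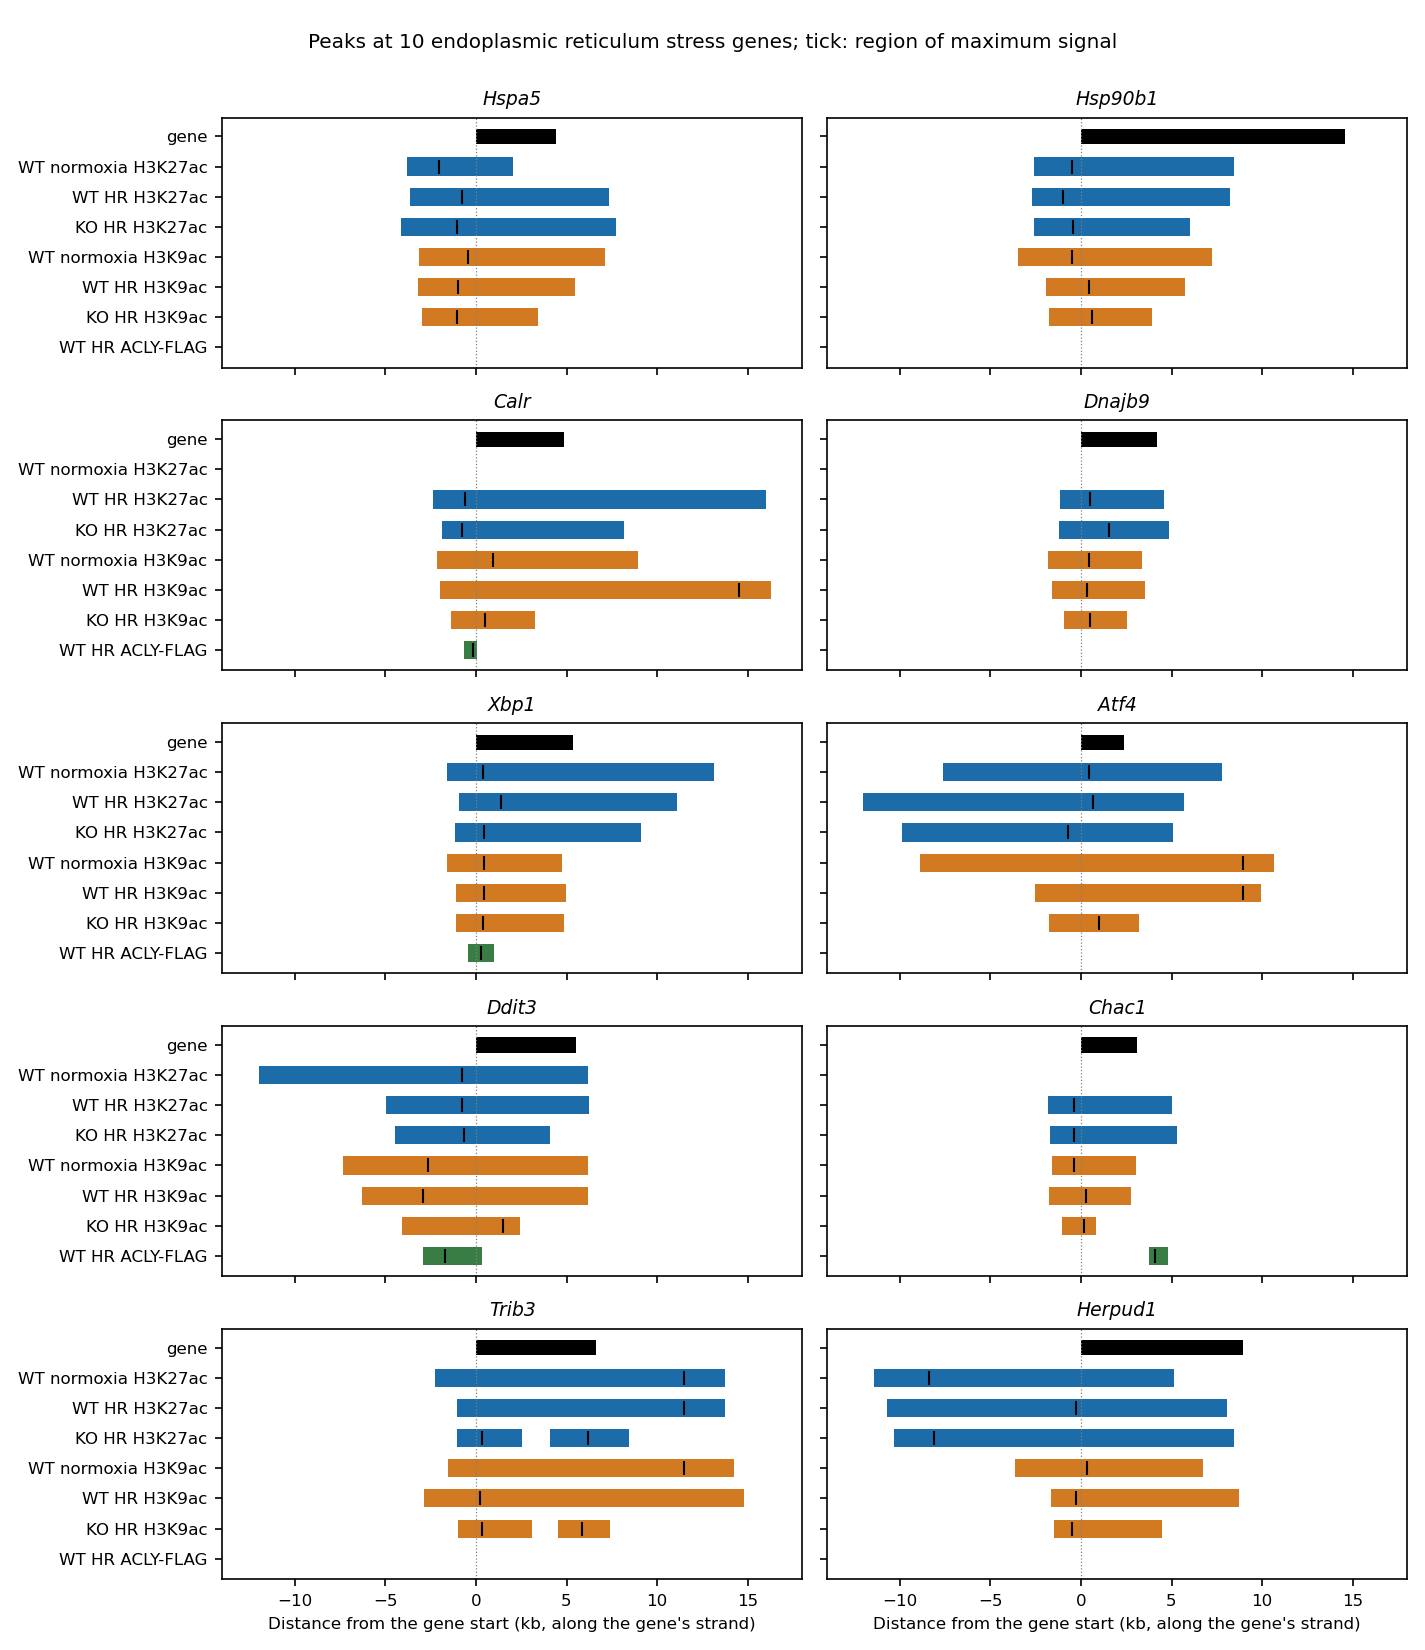
Peaks at the 10 genes by distance from the gene start (horizontal axis, kb, along the strand of the gene), 1 row for each list. The black bar is the gene, coloured bars are peaks in it or within 1 kb of it, and ticks mark the middle of the region of maximum signal. Calr, Dnajb9 and Chac1 have an empty row for H3K27ac in WT normoxia, and Trib3 has 2 peaks per KO list where the WT lists have 1.

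Xbp1 (chromosome 11, 5520641 to 5525993) encodes the transcription factor that IRE1 activates by splicing. Its H3K9ac peaks were alike in extent, at 6380, 6100 and 5934 bp, with maxima 444, 434 and 403 bp after the start, and the KO to WT HR width ratio was 0.97, the highest of the 10 genes. The median of that ratio was 0.55 for the 10 genes and 0.52 for 7093 coding genes. By maximum signal the H3K9ac peak stood at 2.33%, 1.41% and 5.1% of the lists, and by total signal at 18%, 9.61% and 5.82%. The H3K27ac peaks, of 14730, 12040 and 10279 bp, covered the whole gene, ran on into Ccdc117 and stood at 29.3%, 15.2% and 8.17%.

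Atf4 (chromosome 15, 80255184 to 80257545) encodes the transcription factor translated when eIF2 is phosphorylated. Its H3K27ac peaks were 15390, 17760 and 14984 bp wide, began 7593, 12043 and 9875 bp upstream, touched Mief1 and stood at 23.4%, 10.7% and 7.32% of the lists. Those of the WT lists also touched Rps19bp1. H3K9ac measured 19550, 12480 and 4987 bp, with a KO to WT HR ratio of 0.4. In both WT lists the H3K9ac peak touched Mief1 and Rps19bp1. Its maximum lay near the start of Rps19bp1, 8961 and 8971 bp from the Atf4 start. The KO peak ended 859 bp past Atf4 and touched no other coding gene. Its rank was 5.65%, 5.28% and 14.4%.

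Ddit3 (chromosome 10, 127290793 to 127296291) encodes CHOP, a transcription factor of prolonged stress that promotes cell death. Its H3K27ac peaks were 18160, 11180 and 8540 bp wide and its H3K9ac peaks 13520, 12480 and 6543 bp. They stood at 28.5%, 11.4% and 6.59% for H3K27ac and at 10.3%, 4.53% and 3.23% for H3K9ac. By maximum signal H3K27ac stood at 67.2%, 6.22% and 3.9%, so the normoxia peak, the widest of the 3, had a maximum in the lower part of its list. Each of these peaks also touched Mbd6, whose start is near that of Ddit3, the WT peaks touched Mars1 as well, and the H3K27ac peak in normoxia also Dctn2.

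Chac1 (chromosome 2, 119351242 to 119354326) encodes an enzyme that degrades glutathione, and its peaks ranked low by total signal among those of the 10 genes. By the highest peak of each gene it was the lowest in 4 of the 5 acetylation lists in which it had one, Trib3 being lower for H3K27ac in KO HR. H3K9ac measured 4590, 4500 and 1862 bp and stood at 95.6%, 58.3% and 66.4% of the lists, rank 6227 of 6513 in WT normoxia. H3K27ac measured 6870 bp in WT HR and 6994 bp in KO HR, at 55.1% and 36.8%. By maximum signal the H3K27ac peaks stood at 22.5% and 63.8%, and the H3K9ac peaks at 34.1%, 57.8% and 42.5%. In WT HR its H3K27ac maximum thus ranked above those of Calr and Dnajb9, while its H3K9ac maximum was the lowest-ranking of the 10 genes. The H3K27ac peaks covered the whole gene and 1954 and 2219 bp beyond its end, and the H3K9ac peaks covered 97.9%, 89.1% and 26.8% of the gene. No other coding gene was touched.

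Trib3 (chromosome 2, 152337425 to 152344060) encodes a pseudokinase that binds and inhibits AKT. In the WT lists 1 peak of 14780 to 17680 bp covered Trib3 and reached Rbck1, past the gene end by 7124 to 8174 bp. In 3 of these 4 lists the maximum lay 11490 or 11495 bp from the Trib3 start, near the start of Rbck1. The WT normoxia peaks stood at 31.5% for H3K27ac and 7.26% for H3K9ac. In KO HR the gene held 2 separate peaks for each mark, of 3577 and 4345 bp for H3K27ac and 4079 and 2917 bp for H3K9ac, and neither touched Rbck1. The peak over the start stood at 44.6% of the KO H3K27ac list and 20.6% of the KO H3K9ac list, against 17.3% and 3.98% for the single WT HR peaks. With KO lists reduced to 5655 peaks, Trib3 had no H3K27ac peak.

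From WT normoxia to WT HR the summed H3K27ac width at a gene was smaller at 4 of the 7 genes with a peak in both and at 59.2% of such coding genes, and for H3K9ac at 8 of 10 and 62.5%. The summed width of the H3K9ac peaks was smaller in KO HR than in WT HR at 10 of the 10 genes and at 96.5% of coding genes with a peak in both, and for H3K27ac at 7 of 10 and 79.4%, the exceptions being Hspa5, Dnajb9 and Chac1. The H3K27ac width ratio of KO to WT HR was 0.85 at the median of the 10 genes and 0.8 at that of 6485 coding genes, lowest for Trib3 (0.54) and Calr (0.55) and highest for Hspa5 (1.08). Of the KO HR peaks, 92.8% to 100% of the H3K27ac bases lay inside the WT HR peak of the same gene, and 100% of the H3K9ac bases did.

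ACLY-FLAG had 1 peak in WT normoxia, at none of the coding genes, and 3666 peaks in WT HR, which stood at 13.2% of coding genes and at 4 of the 10 genes: Calr, Xbp1, Ddit3 and Chac1. All 10 genes, and 27.3% of coding genes, had both acetyl marks in WT HR, and of those coding genes 30.8% had ACLY-FLAG. Over the start of the gene it stood at 3 of the 10 genes and at 8.76% of coding genes. The single normoxia peak and the long HR list come from 1 library each, and the IgG controls were not analysed here. The normoxia peak was 38570 bp wide with a total signal of 2.62e+07. The HR peaks had a median width of 1730 bp and total signals of 3952.84 to 26484.3. Whether these lists share a scale is not known, so their lengths do not show a change in where ACLY lies.

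At Ddit3 the ACLY-FLAG peak was 3280 bp wide (chromosome 10, 127287861 to 127291140) and ranked 30 of 3666 by total signal, 162 by width and 774 by maximum signal. It ran from 2932 bp upstream to 347 bp into the gene, over the starts of both Ddit3 and Mbd6, with its maximum 1703 bp upstream. At Xbp1 it was 1430 bp wide (chromosome 11, 5520201 to 5521630), ranked 817 by total and 425 by maximum signal, ran from 440 bp upstream to 989 bp inside and had its maximum 269 bp after the start. At Calr the peak was 730 bp wide (chromosome 8, 84846861 to 84847590) and ranked 974 by total and 170 by maximum signal. Its region of maximum signal, 159 to 150 bp upstream of the start, lay inside the ERSE match shown above. The maxima at Xbp1, Ddit3 and Chac1 lay outside the windows searched for matches. How often ACLY-FLAG maxima lie on such a match was not counted, and binding there was not tested. At Chac1 the peak (chromosome 2, 119355021 to 119356060, rank 704 by total and 258 by maximum signal) lay outside the gene, 3779 to 4818 bp after the start and past the gene end. It was inside the WT HR H3K27ac peak and outside all H3K9ac peaks of the gene. The peaks at Calr, Xbp1 and Ddit3 lay whole inside the H3K27ac and H3K9ac peaks of WT HR and KO HR.

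Counted anywhere under the WT HR H3K27ac peak of the gene, a count chosen after the positions were seen, ACLY-FLAG was present at 7 of the 10 genes and at 29.9% of the 6632 coding genes with H3K27ac in WT HR. The added genes were Atf4, Trib3 and Herpud1. The peak at Herpud1 (chromosome 8, 94376991 to 94378270, rank 2285) lay 9438 to 8159 bp upstream and held the H3K27ac maximum of WT normoxia. The peak at Atf4 lay 6473 to 3844 bp upstream (rank 1301), and that at Trib3 covered the start of Rbck1 (rank 2308). Wider H3K27ac peaks have more room for an ACLY-FLAG peak, and those of the 10 genes were wider than those of coding genes, as given above. The nearest ACLY-FLAG peak was 16830 bp from Hspa5, 58503 bp from Dnajb9 and 72687 bp from Hsp90b1.

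The other genes of the pathway, 64 genes in 5 lists by role, had H3K27ac at 32 genes in WT normoxia, 47 in WT HR and 54 in KO HR, H3K9ac at 49, 54 and 53, and ACLY-FLAG at 19 in WT HR. As shares these were 50%, 73.4% and 84.4% for H3K27ac, against the 22.6%, 30.3% and 37.9% of coding genes, and 29.7% for ACLY-FLAG, against 13.2%. For H3K9ac they were 76.6%, 84.4% and 82.8%, against 31.9%, 36.4% and 35.9%. H3K27ac was present in WT HR and absent in WT normoxia at 15 genes, 14 of which had H3K9ac in normoxia, and at none the reverse. Among the 18 pathway genes with H3K9ac and no H3K27ac in normoxia, those 14 had H3K27ac in HR, beside 51.6% of coding genes. With lists of 5655 peaks 9 of the 64 genes had H3K27ac in HR and not in normoxia, against 2.89% of coding genes.

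The counts of genes with H3K27ac in WT normoxia and WT HR are given by role, beside the 8.38% of all coding genes that had it in HR and not in normoxia, and differences between roles were not tested. Chaperones and folding enzymes went from 7 to 12 of 16 genes, among them Hyou1, an Hsp110-type exchange factor for BiP (rank 2867), and Ero1b, an oxidase for disulfide bonds (rank 4733). Degradation and translocation genes went from 10 to 17 of 20, with Srpr, the signal recognition particle receptor (rank 3366), and the translocon subunits Sec61b (rank 4561) and Sec61g (rank 4635). Targets of ATF4 and CHOP went from 7 to 10 of 15, with Atf3, a stress transcription factor (rank 4854). Sensors and eIF2 kinases stood at 4 of 8 in both conditions, with Ern1, Eif2ak3 and Atf6, which encode IRE1, PERK and ATF6, present in each. Genes of eIF2 and its regulators stood at 4 of 5 in both.

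H3K9ac was present in WT HR and absent in normoxia at 5 pathway genes: Creld2, Asns, Eif2ak1, Ero1b and Eif2ak4. That is 5 of 64, near the 5.92% of all coding genes. Asns encodes asparagine synthetase, an ATF4 target, and Eif2ak4 encodes GCN2, the eIF2 kinase that senses amino acid lack. In KO HR, 7 of the 64 genes had H3K27ac that WT HR lacked, near the 8.31% of coding genes, and the 6 with the highest signal were Fgf21, a liver hormone raised by ATF4, Sesn2, Edem2, Uggt1, Eif2ak4 and Pdia6, at ranks 7604 to 12382 of 14418. With KO lists reduced to 5655 peaks, 34 of the 64 genes and 20% of coding genes had H3K27ac in KO HR. In the whole list it was 54 of the 64 and 37.9% of coding genes. None of the 6 genes just named is within the limit by rank. H3K9ac was absent in KO HR at Slc7a11, the cystine transporter, and at Eif2b5, both with a peak in WT HR, and Edem2 showed the reverse. These 2 of 64 and 1 of 64 genes are shares below the 3.97% and 3.46% of coding genes. The middle of the Slc7a11 peak lay 58702 bp after the gene start.

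Beside the 13.2% of all coding genes, ACLY-FLAG stood at 5 of 15 ATF4 and CHOP targets, 5 of 16 folding genes and 4 of 20 degradation and translocation genes. It stood at 3 of 8 sensors and kinases and 2 of 5 genes of eIF2 and its regulators. These counts include genes without an acetylation peak. Of the 46 pathway genes with both marks in WT HR, 17 had ACLY-FLAG, beside 30.8% of coding genes with both marks. The 6 peaks of highest total signal were at Gdf15, a stress-induced secreted factor (rank 51), Dnajc3, an inhibitor of PERK (rank 205), Cebpg (rank 327), Atf5 (rank 338), Vcp, the ATPase that extracts proteins for degradation (rank 399), and Hyou1 (rank 442). Among the sensors, ACLY-FLAG was present at Eif2ak3, Atf6 and Atf6b and not at Ern1.

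**Figure D4:**
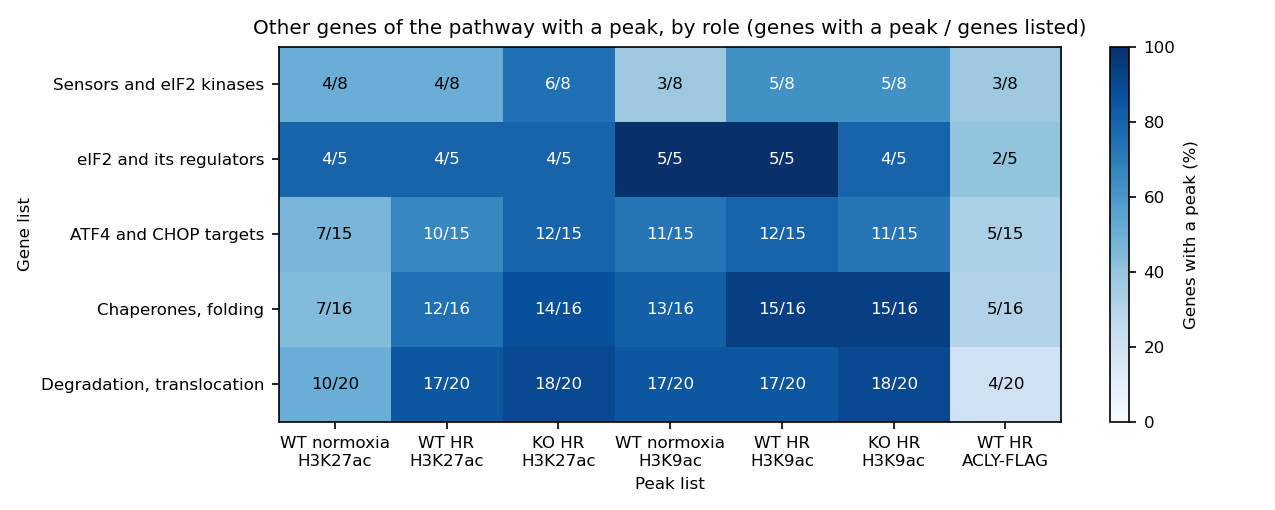
Number of genes with a peak of the genes listed (text in each cell) and their share (colour, percent) for 5 lists of other pathway genes (vertical axis) in 7 peak lists (horizontal axis). Degradation and translocation genes go from 10 of 20 to 17 of 20 between WT normoxia and WT HR for H3K27ac, and sensors and kinases stay at 4 of 8.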

How the data were processed

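CUT&RUN peak lists of 8 samples were used, 1 library each. In the authors' deposited lists, which have no header, each peak carries its signal summed over the peak, its highest signal and where that lies. The signal's normalization, the aligner and the peak caller are not given in the sources used here. Per the submitters' processing notes the build is mm10 and the tools named are kallisto and Trimmomatic. Peaks were ordered by signal inside each list. Signal was not compared between lists, apart from giving the total signals of both ACLY-FLAG lists. Groups come from the sample titles. Starts were converted to count from 1.

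Genes were 21887 coding genes of RefSeq (GRCm38.p6), 17492 of them with a strand and so a known start. Overlap was computed with Python 3.11.15 and pandas 2.3.3, checked on simulated peaks. No test was run, because each antibody and condition has 1 library. All 10 genes are named. Of other pathway genes, those whose status differs are named, up to 6 per comparison by signal, and Ero1l and Ero1lb were matched as Ero1a and Ero1b. The 10 genes, the lists and the motifs were chosen with earlier results of these data known. The alternatives tried were flanks, gene starts, equal list lengths, stricter limits, longer overlaps and other rankings. The 16 RNA files, 4 per group, were not used.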

Additional observations from a re-analysis of the deposited data

How the results depend on the processing

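No paired analysis was possible because the replicate numbers belong to the RNA files, which were not used, and each peak list is 1 library. With no flank, a 5 kb flank, gene starts alone or an overlap of 500 bases, the number of the 10 genes with an acetylation peak in each list was as reported. ACLY-FLAG stood at 3 of the 10 genes with no flank (12.6% of coding genes) or with 500 bases (12.9%). Over starts alone it also stood at 3, against 8.76% of coding genes with a known start. With a 5 kb flank it stood at 6, against 15.2%. Counted anywhere under the WT HR H3K27ac peak, an alternative chosen after seeing the data, it stood at 7, against 29.9% of coding genes with such a peak.

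With the 5655 highest peaks per list, 1 gene (Trib3) had H3K27ac in WT HR and not in KO HR. For H3K9ac, 1 gene (Chac1) had it in WT HR and not in normoxia, and 1 (Chac1) in WT HR and not in KO HR. H3K9ac was then at 28.7% of coding genes in WT normoxia, 29.5% in WT HR and 25.7% in KO HR. H3K27ac was at 23.2% in WT HR. The shares of coding genes with these changes are not given for this limit, so these counts cannot be weighed against them. H3K27ac in KO HR was then present at 34 of the 64 pathway genes, against 20% of coding genes. With the peaks above the median maximum signal of each list, H3K27ac was present in WT HR and absent in normoxia at 2 genes, Ddit3 and Chac1, and it differed between KO HR and WT HR at 1 gene in each direction (Dnajb9 in KO HR alone, Chac1 in WT HR alone). H3K9ac then was present in WT HR and absent in normoxia at 3 genes (Calr, Dnajb9 and Ddit3), the reverse at 1 (Chac1), present in KO HR and absent in WT HR at 1 (Chac1), and the reverse at 1 (Atf4). Of the 64 pathway genes, those with a peak were then 17 for H3K27ac and 25 for H3K9ac in WT normoxia and 12 for ACLY-FLAG in WT HR. The shares of coding genes were 12.6%, 19.3% and 7.96%.

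Medians are given for WT normoxia, WT HR and KO HR in that order, and for ACLY-FLAG in WT HR. Ranked by maximum signal, the median percent of the list was 22.3%, 11.9% and 12.3% for H3K27ac. It was 34.1%, 28.7% and 27.2% for H3K9ac and 9.32% for ACLY-FLAG. Per base it was 51.3%, 39.7% and 34.4% for H3K27ac, 42.2%, 22.5% and 20.7% for H3K9ac and 12.1% for ACLY-FLAG. Depth is unknown, so a missing peak is not a missing mark.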
